A study of Mus musculus with 12 samples.

Results

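The genes described here are 10 genes of T lymphocytes and natural killer (NK) cells: Cd2, Cd3e, Cd3g, Cd4, Cd8a, Gzma, Gzmb, Prf1, Nkg7 and Klrk1. They were found by their gene names among the non-control probes of the arrays, where they had 14 of the 39429 probes and were 10 of the 27472 named genes. The skin came from C57BL/6 males about 8 weeks old, and its RNA was read on 12 dual-colour Agilent arrays, in 4 groups of 3 biological replicates. Incised skin carried a sutured wound of 1 cm and was injected into the dermis, 72 h after wounding, with 100 nmol of a miR-29b mimic or with PBS, the vehicle. Intact skin was injected in the same way with 100 nmol of antimiR-29, an inhibitor of miR-29, or with PBS. About 20 to 100 mg of skin was taken 24 h after the injection in each group. All 4 groups thus received an injection, and the vehicle controls of the mimic and of antimiR were the PBS group in incised and in intact skin.

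T cells recognise peptide through a receptor whose signal is passed into the cell by the CD3 chains, and the coreceptors CD4 and CD8 divide them into helper and killer classes. NK cells and killer T cells hold lytic granules with perforin, which opens the membrane of a target cell, and granzymes, the proteases that then enter and kill it. Mouse skin holds resident T cells of both receptor classes, and it recruits further lymphocytes and NK cells into a healing wound. In these pieces of whole skin, fewer cells of a type and less RNA per cell cannot be told apart.

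The sequences of mature miR-29b and of 4 probes are shown first. The seed of a microRNA sets which RNAs it can bind, and the probe decides what part of a transcript an array reads. The labels do not give the sequences of the mimic and of antimiR-29, so the natural mature sequence is printed. Mature mmu-miR-29b-3p from RefSeq (GRCm38.p6) is encoded at chr1:195037091-195037113 on the plus strand and at chr6:31063025-31063047 on the minus strand, and the capitals mark its seed, bases 2 to 8.
miR-29b-3p: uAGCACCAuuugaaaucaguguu
The letters complementary to this seed, TGGTGCT, were found in 0 of the 14 probes, against 0.543% of all 39429 probes on the printed strand. This says nothing of the rest of each transcript. The 4 genes with more than 1 probe were Cd2, Cd4, Cd8a and Nkg7, and the probe nearer the start of each transcript is printed below, in lower case throughout, with its position in the mm9 build that the arrays' headers name.
Cd2, chr3:101083802-101086981, minus strand: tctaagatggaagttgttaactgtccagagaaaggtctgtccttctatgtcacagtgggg
Cd4, chr6:124817706-124817765, minus strand: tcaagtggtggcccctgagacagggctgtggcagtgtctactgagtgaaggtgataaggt
Cd8a, chr6:71323885-71323944, plus strand: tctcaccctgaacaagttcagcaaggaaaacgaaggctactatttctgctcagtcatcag
Nkg7, chr7:50693148-50693207, plus strand: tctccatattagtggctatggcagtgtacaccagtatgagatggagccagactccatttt
The Cd2 probe of 60 bases spans 3180 bases of the genome, so it crosses at least one intron, and the others lie in unbroken stretches. The second probe of the gene lay 3911 bases further on for Cd2, 2935 for Cd4, 4966 for Cd8a and 322 for Nkg7. A polyadenylation signal, AATAAA or ATTAAA on the printed strand, lay 21 bases before the end of the brighter Cd2 probe, 4 before that of the brighter Cd4 probe, 11 before that of the Cd3e probe and 13 before that of the Gzma probe. Either motif was found in 16.7% of all probes. Exon and UTR positions of the mm9 build were not used here.

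RNA of the skin was labelled with Cy5 and a universal mouse reference with Cy3, so each level is given as a log2 ratio of skin over that reference, and such ratios are not compared between genes. Skin signal was clear of background at 64.4 to 73.6% of all probes per array, and saturated spots numbered 0. The array that differed most from its own group was intact PBS array 3. Its median correlation with the other arrays of the group was 0.921, against 0.940 to 0.976 for the other 11 arrays. Each of the 3 slides carried 4 arrays. The whole incised PBS group shared slide 1 with the first mimic array, the whole antimiR group shared slide 3 with the third intact PBS array, and the remaining mimic and intact PBS arrays shared slide 2. No slide carried both PBS groups.

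Skin signal was well above background on all 12 arrays for 10 of the 14 probes, among them at least 1 probe each of Cd2, Cd3e, Cd3g, Cd4, Gzma, Gzmb, Prf1 and Nkg7. The dimmer Cd2 probe was well above background on 11 arrays and the Klrk1 probe on 6. Both probes of Cd8a, a chain of the killer T cell coreceptor, were not well above background on any of the 12 arrays, with Cy5 at 1.07 to 1.88 times the local background, so no fold change is given for it. Its partner chain Cd8b1 was well above background on at most 3 of the 12 arrays. The 9 genes other than Cd8a passed the filter, which required a clear Cy5 signal on 3 or more of the 12 arrays. The reference was the dimmer partner for Gzmb, whose Cy3 signal was well above background on only 2 arrays, and for Klrk1, on 1 array.

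**Figure D1:**
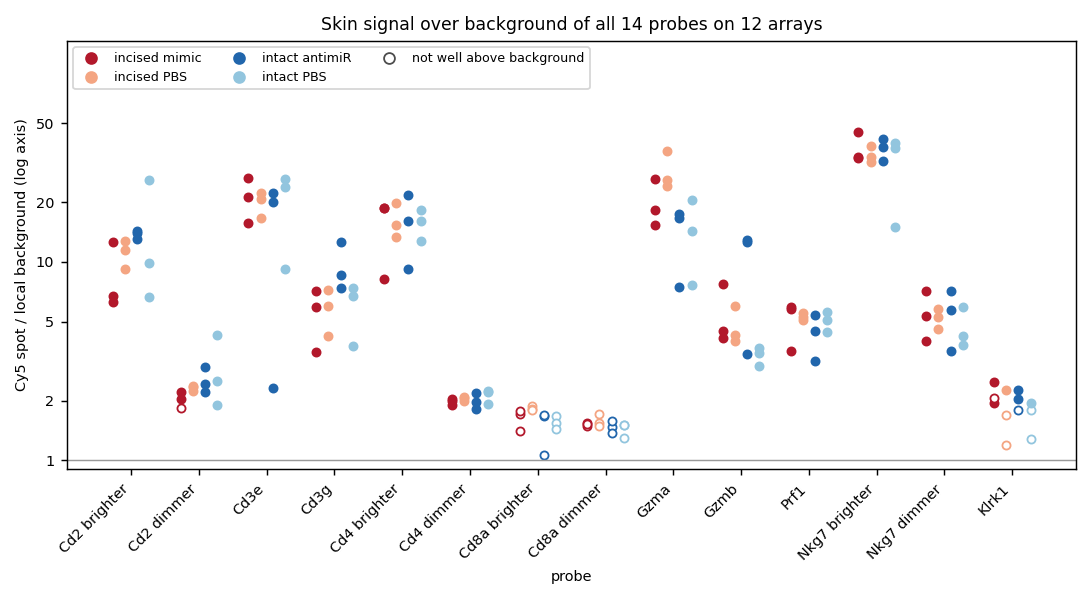
Cy5 spot signal over its local background (log axis) of all 14 probes, 1 point per array, with open points where the signal was not well above background. Both Cd8a probes have open points on all 12 arrays, at 1.07 to 1.88, and Cd3e has 1 low point at 2.31 in antimiR-treated intact skin.

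Among the 9 measured genes, 1 call was made in the 3 comparisons: Gzma was higher in incised than in intact skin under PBS, by 1.34 ± 0.40 on the log2 scale (limma, standard error, adjusted p = 0.047). Against PBS in incised skin, 0 of the 9 genes passed the test after the mimic, where 0.591% of all 20459 genes tested did. There 0 of the 9 had an unadjusted p under 0.05, against 12.5% of all genes. Against PBS in intact skin, 0 of the 9 passed after antimiR, where 9.71% of all 20454 genes did. There 3 of the 9, Cd3g, Gzmb and Prf1, had an unadjusted p under 0.05, against 24.1% of all genes. Between incised and intact skin under PBS, 1 of the 9 passed, where 15.4% of all 20462 genes did. The median log2 fold change of the 9 genes was -0.15 after the mimic, 0.18 after antimiR and 0.17 with incision, and the median of all genes was within 0.02 of 0 in each of these. Fold changes were positive for 3 of 9 genes after the mimic, 8 of 9 after antimiR and 8 of 9 with incision. The antimiR and incision comparisons share the intact PBS arrays, and the mimic and incision comparisons share the incised PBS arrays.

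**Figure D2:**
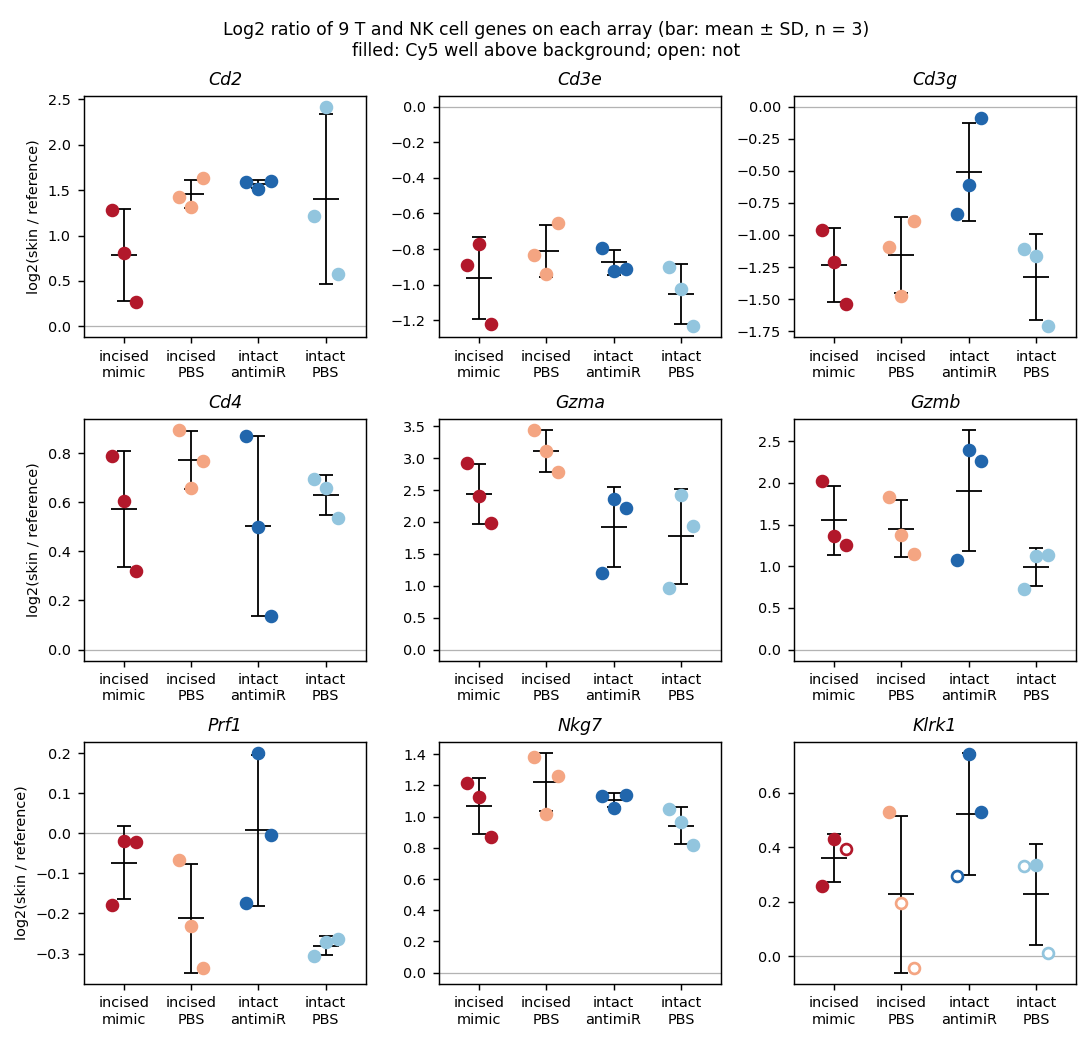
Log2 ratio of skin over reference for the brightest probe of each gene, 1 point per array, with the mean and SD of the 3 arrays of a group as bars. Gzma is higher on all 3 incised PBS arrays, at 2.78 to 3.44, than on the 3 intact PBS arrays, at 0.97 to 2.42.

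Cd3e encodes the epsilon chain of the CD3 complex, which every T cell receptor needs at the surface. Its probe (chr9:44806828-44806887, minus strand) had log2 ratios of -0.89, -0.77 and -1.22 in mimic-treated incised skin, against -0.83, -0.94 and -0.66 in PBS-treated incised skin. It had -0.79, -0.92 and -0.91 in antimiR-treated intact skin, against -0.90, -1.02 and -1.23 in PBS-treated intact skin. All 4 groups overlapped, and the fold changes were -0.15 ± 0.13 for the mimic, 0.18 ± 0.13 for antimiR and 0.24 ± 0.13 for incision (log2, standard error). The adjusted p was 0.71, 0.44 and 0.22 (limma). The spot on antimiR array 3 was dim in both dyes, with Cy5 at 2.31 and Cy3 at 7.80 times background, where the other 11 arrays had Cy5 at 9.16 to 26.3 and Cy3 at 60.2 to 132 times background. The ratio on that array was within the range of its group, whereas with Cy5 alone the antimiR fold change of Cd3e became -0.68.

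Cd3g encodes the gamma chain of the same complex. Its probe (chr9:44777868-44777927, minus strand) had log2 ratios of -0.96, -1.21 and -1.54 in mimic-treated incised skin, against -1.09, -1.48 and -0.89 in PBS-treated incised skin. It had -0.83, -0.61 and -0.09 in antimiR-treated intact skin, against -1.11, -1.16 and -1.71 in PBS-treated intact skin. All 3 antimiR arrays lay above all 3 intact PBS arrays, with means of -0.51 ± 0.38 after antimiR and -1.33 ± 0.33 under PBS (SD, n = 3 each). Groups were likewise free of overlap for 25.8% of all genes in this comparison, and for 3 of the 9 genes here, which were Cd3g, Nkg7 and Prf1. The difference of 0.82 ± 0.24, with a 95% interval of 0.29 to 1.34, just missed the threshold over all genes (limma, adjusted p = 0.055) and passed it over all probes (adjusted p = 0.048), where 11.4% of the probes did. Without intact PBS array 3 it was 0.62 (adjusted p = 0.13), and without antimiR array 1 it was 0.98 (adjusted p = 0.047). With the slide as a fixed block, which sets the 3 antimiR arrays against the single intact PBS array of their slide, it was 1.20 (adjusted p = 0.036). In the other comparisons Cd3g differed by -0.08 ± 0.24 for the mimic and 0.17 ± 0.24 for incision, and neither passed (adjusted p = 0.94 and 0.66).

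Of the 2 further CD3 and zeta chains on the arrays, Cd3d, the delta chain, rose by 1.04 ± 0.25 after antimiR (limma, adjusted p = 0.027), at 1.20 to 1.71 in antimiR-treated and -0.11 to 0.62 in PBS-treated intact skin. The zeta chain Cd247, named after its values were seen, differed by 0.00 ± 0.13 (adjusted p = 0.99), at -0.10 to 0.24 after antimiR and -0.24 to 0.22 under PBS. The 4 chains of the receptor complex thus had antimiR fold changes of 1.04, 0.82, 0.18 and 0.00 for Cd3d, Cd3g, Cd3e and Cd247. Skin signal of Cd247 was well above background on at most 6 of the arrays, so its 0.00 does not show that a difference is absent.

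Cd2 encodes an adhesion receptor of T and NK cells that binds CD48 in the mouse. Its brighter probe (chr3:101079831-101079890, minus strand) had log2 ratios of 1.28, 0.81 and 0.27 in mimic-treated incised skin, against 1.43, 1.32 and 1.63 in PBS-treated incised skin. It had 1.59, 1.51 and 1.60 in antimiR-treated intact skin, against 1.21, 2.42 and 0.58 in PBS-treated intact skin. All 3 mimic arrays lay below all 3 incised PBS arrays, the single gene of the 9 whose groups did not overlap here, against 24.2% of all genes. The difference of -0.67 ± 0.38 did not pass the test (limma, adjusted p = 0.52). The 3 antimiR arrays lay within 0.10 of each other, while the 3 intact PBS arrays had an SD of 0.94 around a mean of 1.40, so the antimiR fold change of 0.16 ± 0.38 changed to 0.67 without intact PBS array 2 and to -0.25 without intact PBS array 3. With incision the difference was 0.05 ± 0.38 (adjusted p = 0.94), and it was 0.56 and -0.36 without those same arrays. Intact PBS array 2 was also the array of highest hair follicle marker score, at 1.88, against -0.35 to -0.08 on the other 11 arrays. The part of that difference in the Cd2 value was not tested.

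The upstream Cd2 probe, printed above, was much dimmer, with Cy5 at 1.83 to 4.30 times background. Its log2 ratios were 0.12, 0.12 and -0.06 in mimic-treated incised skin, against 0.25, 0.22 and 0.22 in PBS-treated incised skin, and again the groups did not overlap. They were 0.29, 0.49 and 0.48 in antimiR-treated intact skin, against 0.29, 1.1 and 0.11 in PBS-treated intact skin. Both probes were therefore highest on intact PBS array 2 and lowest on mimic array 3. The fold changes of the upstream probe were -0.17 ± 0.20, -0.08 ± 0.20 and -0.27 ± 0.20 for the mimic, antimiR and incision, and none passed over all probes (limma, adjusted p = 0.82, 0.86 and 0.39). An offset of 50 intensity units was added to both dyes before the ratio was taken, which pulls the ratios of dim spots towards 0.

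Cd4 encodes the coreceptor of helper T cells, which some dendritic cells also carry. Its brighter probe (chr6:124814711-124814770, minus strand) had log2 ratios of 0.79, 0.61 and 0.32 in mimic-treated incised skin, against 0.90, 0.66 and 0.77 in PBS-treated incised skin. It had 0.87, 0.50 and 0.14 in antimiR-treated intact skin, against 0.70, 0.66 and 0.54 in PBS-treated intact skin. The groups overlapped in each comparison, and the widest spread was among the antimiR arrays, with an SD of 0.37. The fold changes were -0.20 ± 0.17 for the mimic, -0.13 ± 0.17 for antimiR and 0.14 ± 0.17 for incision (limma, adjusted p = 0.71, 0.72 and 0.61). The upstream probe of Cd4 stayed within -0.03 to 0.27 on all 12 arrays, with Cy5 at 1.82 to 2.23 times background. In incised PBS skin it was 0.07, 0.01 and 0.00, below the 0.12, 0.27 and 0.12 of intact PBS skin, whereas the brighter probe gave a positive difference there. This difference of the upstream probe, -0.14 ± 0.07, did not pass over all probes (limma, adjusted p = 0.22). With the extraction program's processed signals it was -0.46 and passed (limma, adjusted p = 0.046).

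**Figure D3:**
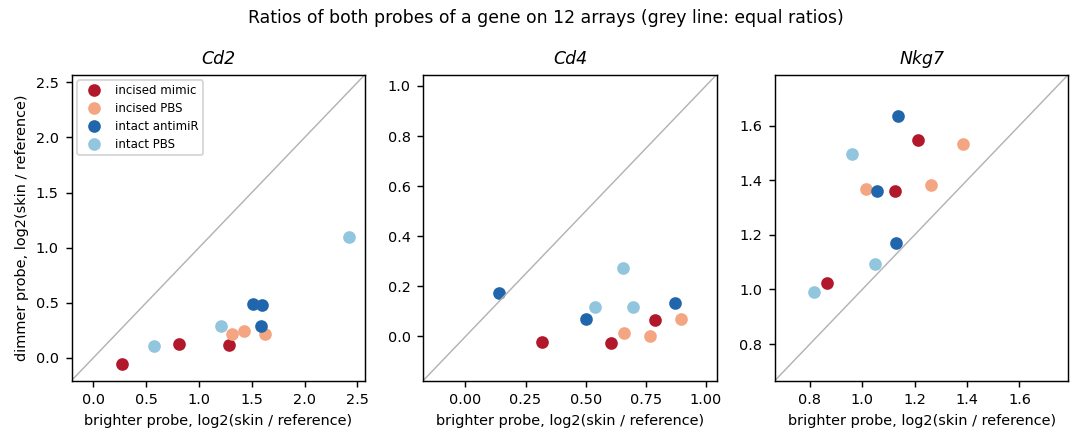
Log2 ratio of the dimmer probe (vertical axis) against the brighter probe (horizontal axis) of Cd2, Cd4 and Nkg7, 1 point per array. The points of Cd2 run along a rising line below equality, those of Cd4 form a flat band between -0.03 and 0.27, and those of Nkg7 lie above the line of equality.

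Across the 12 arrays the correlation of the 2 probes' ratios was 0.86 for Cd2, -0.05 for Cd4 and 0.66 for Nkg7. These are descriptions over arrays that share their groups, slides and reference. The log2 ratio of the brighter probe minus that of the dimmer one was 0.32 to 1.41 for Cd2 and -0.53 to -0.04 for Nkg7.

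Gzma encodes granzyme A, a serine protease of the lytic granules of NK cells and killer T cells. Its probe (chr13:113884035-113884094, minus strand) had log2 ratios of 2.93, 2.41 and 1.98 in mimic-treated incised skin, against 3.44, 3.10 and 2.78 in PBS-treated incised skin. It had 1.19, 2.36 and 2.21 in antimiR-treated intact skin, against 0.97, 2.42 and 1.94 in PBS-treated intact skin. The incised PBS arrays, at 2.78 to 3.44, were all above the intact PBS arrays, at 0.97 to 2.42. Groups did not overlap in this comparison for 35.2% of all genes and for 2 of the 9 genes here, Gzma and Gzmb. The means were 3.11 ± 0.33 in incised and 1.77 ± 0.74 in intact skin under PBS (SD, n = 3 each), which is a 2.52-fold difference with a 95% interval of 0.45 to 2.22 on the log2 scale.

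The Gzma call was close to the threshold. It was kept without intact PBS array 2 or without antimiR array 1, at an adjusted p of 0.026 and 0.032, and was lost when any of the other 10 arrays was left out (limma, adjusted p = 0.051 to 0.14). The difference was 0.93 without intact PBS array 1, the lowest of its group (limma, adjusted p = 0.12), and 1.42 without intact PBS array 3 (adjusted p = 0.074). Of 24 alternatives, all 24 kept the direction and 6 kept the call, with fold changes of 0.69 to 1.66. The lowest came with the slide as a fixed block (0.69, adjusted p = 0.73), a fit where the incision difference is read through the mimic arrays, since no slide held both PBS groups. Part of the 24 alternatives could not change the direction. The fold change stayed at 1.34 with any mimic or antimiR array left out, with the replicate block and without a filter on dim probes. Quantile scaling of average intensities also left it as it was.

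Markers of other cells differed between the same groups. Of 9 pan-leukocyte markers, 8 were higher in incised than in intact skin under PBS (5 with Cy5 alone), with a median log2 fold change of 0.96, and the list's score per array was 0.04 to 0.58 on incised PBS arrays and -1.24 to -0.18 on intact PBS arrays. The macrophage score was 0.28 to 0.42 on incised PBS arrays and -0.45 to -0.16 on intact PBS arrays, with 6 of 12 kept markers higher, against 3 with the slide as a random block, where Adgre1, Csf1r and C1qc had an adjusted p of 0.056, 0.062 and 0.073 (limma), and 2 with Cy5 alone. The neutrophil score was 0.06 to 0.27 on incised PBS arrays and -0.70 to -0.57 on intact PBS arrays, with 3 of 10 kept markers higher, and the neutrophil markers Ltf and Ngp were too dim to be kept. A score is the median over a list of log2 ratios centred over the 12 arrays, and it can fall below 0. The part of these cells in the Gzma value was not tested.

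After the mimic, all 3 values of Gzma lay below the incised PBS mean, and the groups overlapped. The difference of -0.67 ± 0.40, with a 95% interval of -1.55 to 0.22, did not pass (limma, adjusted p = 0.55). After antimiR it was 0.15 ± 0.40 (adjusted p = 0.87), with array 1 of both intact groups the lowest of its group.

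Gzmb encodes granzyme B, the granule protease that starts apoptosis in the target cell. Its probe (chr14:56877916-56877975, minus strand) had log2 ratios of 2.03, 1.36 and 1.26 in mimic-treated incised skin, against 1.83, 1.37 and 1.15 in PBS-treated incised skin. It had 1.07, 2.39 and 2.26 in antimiR-treated intact skin, against 0.73, 1.12 and 1.13 in PBS-treated intact skin. The incised groups lay close together, with a mimic fold change of 0.10 ± 0.33 (limma, adjusted p = 0.95). In intact skin, antimiR arrays 2 and 3 lay far above the PBS arrays, and antimiR array 1 lay among them. Cy5 stood at 12.9 and 12.6 times background on antimiR arrays 2 and 3 and at 3.41 on antimiR array 1, against 2.97 to 3.69 on the intact PBS arrays. The difference of 0.92 ± 0.33, with a 95% interval of 0.18 to 1.65, did not pass (adjusted p = 0.12). It was 1.33 without antimiR array 1 (adjusted p = 0.013) and 0.67 without antimiR array 2 (adjusted p = 0.33).

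The sign of the Gzmb value changed with the signals used. Without the reference, on Cy5 alone, the antimiR difference was 1.31 (adjusted p = 0.080), whereas with the extraction program's processed signals it was -0.14 (adjusted p = 0.89). In the authors' deposited table Gzmb stood at 2.62, 3.44 and 3.27 on the antimiR arrays, against 2.53, 2.77 and 4.43 on the intact PBS arrays. The difference there was also -0.14, the same as with the processed signals, so for Gzmb these 2 alternatives are not separate evidence. The reference signal was at 1.71 to 3.62 times background on the 12 arrays, and at 2.17 on intact PBS array 3, where the skin signal was at 3.69. Between incised and intact skin under PBS, Gzmb was higher on all 3 incised arrays, but the difference of 0.46 ± 0.33 did not pass (limma, adjusted p = 0.38).

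Prf1 encodes perforin, the pore-forming protein through which granzymes reach the target cell. Its probe (chr10:60766941-60767000, plus strand) had log2 ratios of -0.18, -0.02 and -0.02 in mimic-treated incised skin, against -0.07, -0.23 and -0.34 in PBS-treated incised skin. It had -0.17, 0.20 and -0.01 in antimiR-treated intact skin, against -0.31, -0.27 and -0.26 in PBS-treated intact skin. All 3 antimiR arrays were above the intact PBS arrays, whose SD was 0.02, and the difference of 0.29 ± 0.11 did not pass (limma, adjusted p = 0.12). On Cy5 alone the antimiR difference was -0.19. The spot on antimiR array 2 was dim in both dyes, with Cy5 at 3.15 and Cy3 at 4.15 times background, as was the spot on mimic array 3, at 3.57 and 5.07, where the other 10 arrays had Cy3 at 8.20 to 13.1. The mimic fold change was 0.14 ± 0.11 and that of incision 0.07 ± 0.11 (adjusted p = 0.66 and 0.70).

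Nkg7 encodes a membrane protein of lytic granules that takes part in their release. Its brighter probe (chr7:50693530-50693589, plus strand) had log2 ratios of 1.21, 1.13 and 0.87 in mimic-treated incised skin, against 1.38, 1.02 and 1.26 in PBS-treated incised skin. It had 1.13, 1.06 and 1.14 in antimiR-treated intact skin, against 1.05, 0.96 and 0.82 in PBS-treated intact skin. The antimiR arrays lay just above the intact PBS arrays without overlap. The fold changes were -0.15 ± 0.12 for the mimic, 0.17 ± 0.12 for antimiR and 0.28 ± 0.12 for incision, and none passed (limma, adjusted p = 0.67, 0.43 and 0.13). The incision difference had an unadjusted p of 0.037, as 31.4% of all genes had a p under 0.05 there. The upstream probe, printed above, gave -0.12 ± 0.17, 0.20 ± 0.17 and 0.23 ± 0.17 for the same comparisons (adjusted p over probes = 0.86, 0.52 and 0.37), with the same signs as the brighter probe.

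Klrk1 encodes NKG2D, an activating receptor of NK cells and killer T cells that recognises stress ligands. Its probe (chr6:129561864-129561923, minus strand) was the dimmest of those kept, with Cy5 at 1.20 to 2.47 times background. It was well above background on 2 of 3 mimic-treated and 1 of 3 PBS-treated incised arrays, and on 2 of 3 antimiR-treated and 1 of 3 PBS-treated intact arrays. The log2 ratios were 0.26, 0.43 and 0.39 in mimic-treated incised skin, against 0.53, 0.20 and -0.04 in PBS-treated incised skin. They were 0.29, 0.74 and 0.53 in antimiR-treated intact skin, against 0.33, 0.34 and 0.01 in PBS-treated intact skin. The groups overlapped throughout, and the fold changes were 0.13 ± 0.16 for the mimic, 0.30 ± 0.16 for antimiR and 0.00 ± 0.16 for incision (limma, adjusted p = 0.81, 0.29 and 1.00). Differences were not detectable at this brightness, which does not show that they are absent.

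**Figure D4:**
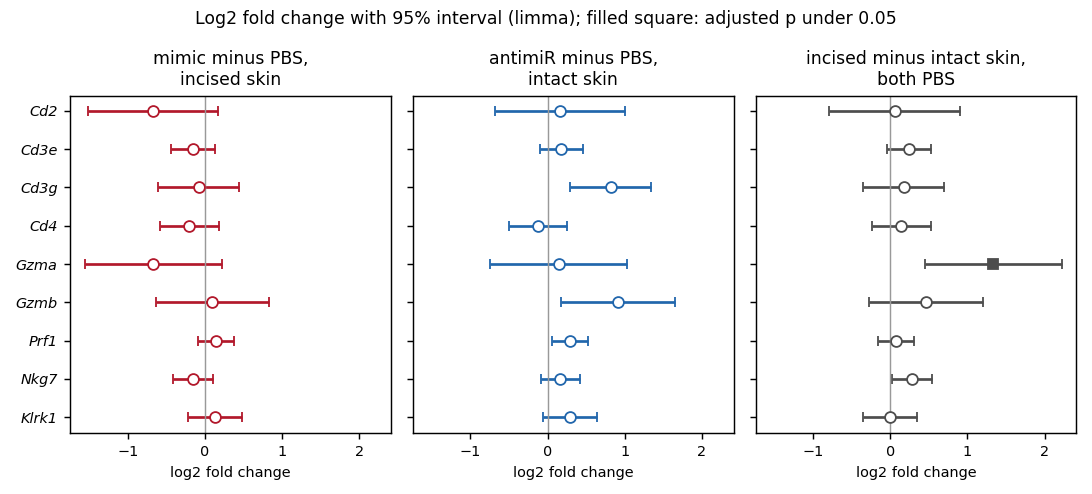
Log2 fold change of each gene with its 95% interval from the fit over 12 arrays, for mimic minus PBS in incised skin, antimiR minus PBS in intact skin, and incised minus intact skin under PBS. The filled square, Gzma at 1.34 with incision, marks the single adjusted p under 0.05, and the intervals of Cd3g, Gzmb and Prf1 after antimiR and of Nkg7 with incision also lie above 0.

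The mimic and antimiR effects were compared directly as the mimic fold change in incised skin minus the antimiR fold change in intact skin. This difference was negative for all 9 genes, with a median of -0.33 against -0.02 for all genes. It passed the test for 0 of 9 genes, against 1.09% of all 20450 genes, and 1 of the 9, Cd3g, had an unadjusted p under 0.05, against 14.1% of all genes. The values ran from -0.90 ± 0.34 for Cd3g (limma, adjusted p = 0.25) to -0.08 ± 0.24 for Cd4 (adjusted p = 0.94), and the other members of largest size were Cd2 at -0.84 ± 0.54, Gzmb at -0.82 ± 0.47 and Gzma at -0.81 ± 0.57. The agent, the wound and the slide all differ between these 2 effects and cannot be told apart.

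Further genes of the same pathways were described from lists, by the number of kept genes that passed in each direction. Of all genes tested, 0.205% rose and 0.386% fell after the mimic, 5.24% rose and 4.47% fell after antimiR, and 9.86% rose and 5.55% fell with incision. With the slide as a fixed block, 0 genes of these lists or of the marker lists were called after the mimic or with incision (limma). Of all genes, 0 and 11 were called there, and 1479 and 2729 had an unadjusted p under 0.05. Among genes named below, that block also lost the antimiR calls of Cd69, Tnfsf10, Il15 and Mmp8. Their adjusted p was 0.056, 0.16, 0.081 and 0.057 (limma). Calls of genes named below that were lost with the slide as a random block, at its estimated correlation, are given with their p. The incision counts also include further lost calls. These were Ptpn22, Il2rb, Gzmc, Raet1c and Itgax, with a random-block adjusted p of 0.058, 0.082, 0.057, 0.10 and 0.052 (limma). The pan-leukocyte count with incision above includes Arhgdib, which was also lost (limma, adjusted p = 0.071). In the list of receptor complex and signalling genes, of which 18 of 21 were kept, 0 changed after the mimic, 3 rose and 1 fell after antimiR, and 4 rose and 1 fell with incision. After antimiR these were the adaptors Fyb at 1.02 ± 0.17 and Lcp2 at 0.71 ± 0.15, with Cd3d, against the kinase Prkcq at -0.90 ± 0.18. With incision they included Fyb at 1.78 ± 0.17, Lcp2 at 0.97 ± 0.15 and the T cell kinase Lck at 0.63 ± 0.14, against Prkcq at -0.76 ± 0.18. The Lck call was lost with Cy5 alone (limma, adjusted p = 0.094). Fyb and Lcp2 are also expressed by myeloid cells and Prkcq by muscle, so these 3 genes do not mark T cells alone.

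Among genes of T cell subsets, the chemokine receptors Ccr7 and Cxcr6 rose after antimiR, by 1.53 ± 0.39 and 0.88 ± 0.12. With incision Ccr7 and the transcription factor Eomes rose (Eomes had an adjusted p of 0.095 with the slide as a random block), and after the mimic 0 genes of this list changed. Of 16 listed genes of gamma-delta and epidermal T cells, 8 were kept. Tcrg-V5, Il17a, Il17f, Il23r and Blk were too dim, and Trdc and Trdv4 were not found by name on the arrays. Of the 8 kept, 3 rose after antimiR, namely Cd69 by 1.17 ± 0.24, Cd163l1 by 0.98 ± 0.20 and Cd7 by 0.78 ± 0.21, and 0 changed in the other comparisons. Of 17 kept NK receptors and adaptors, 7 rose with incision, among them Hcst, the adaptor through which NKG2D signals, by 0.99 ± 0.13, and the receptor chain Klrd1 by 0.81 ± 0.17. In that list 1 rose after antimiR, Fcer1g by 1.42 ± 0.25, and 1 after the mimic, Il18rap by 0.57 ± 0.10. The Il18rap call was lost with the slide as a random block (limma, adjusted p = 0.056) and with Cy5 alone (adjusted p = 0.22). The 7 that rose with incision also held Fcer1g, by 1.35, and the adaptor Tyrobp, by 1.14. Fcer1g is an adaptor that myeloid cells share.

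Of 17 kept granule and effector genes, 6 rose with incision, including Ctsc, the protease that activates granzymes, by 1.1 ± 0.17, and Ccl5 by 1.29 ± 0.31. After antimiR 4 rose, the chemokines Ccl4 by 3.24 ± 0.43 and Ccl3 by 2.20 ± 0.24, granzyme C (Gzmc) by 2.17 ± 0.38 and the death ligand Tnfsf10 by 1.25 ± 0.26. Of these, Ccl4, Ccl3 and Gzmc were also among the 6 that rose with incision, by 2.31, 1.00 and 1.46. In this list 0 changed after the mimic. On Cy5 alone Ccl3 had an adjusted p of 0.90 after antimiR and 0.40 with incision (limma). Granzyme genes lie in a cluster of near copies, so the Gzmc probe may also read its neighbours. The granule inhibitors Serpinb6b and Serpinb9 rose with incision, by 0.91 ± 0.18 and 0.40 ± 0.11, and 0 of 3 changed after antimiR or the mimic. Serpinb9 had an adjusted p of 0.062 with the slide as a random block (limma). Cd48, the ligand of CD2, rose by 0.96 ± 0.14 with incision and by 0.54 ± 0.14 after antimiR, and 4 of 7 ligands of CD2 and NKG2D rose with incision. The antimiR call of Cd48 was lost with Cy5 alone (limma, adjusted p = 0.29). Of 11 kept lymphocyte cytokines and chemokines, 1 rose after antimiR, Il15 by 0.48 ± 0.13, and 2 with incision, Il15ra by 0.39 ± 0.08 and Cxcl16 by 0.77 ± 0.22. With the slide as a random block Il15 had an adjusted p of 0.052 after antimiR and Cxcl16 one of 0.072 with incision (limma), and with Cy5 alone 0 of these genes were called with incision.

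**Figure D5:**
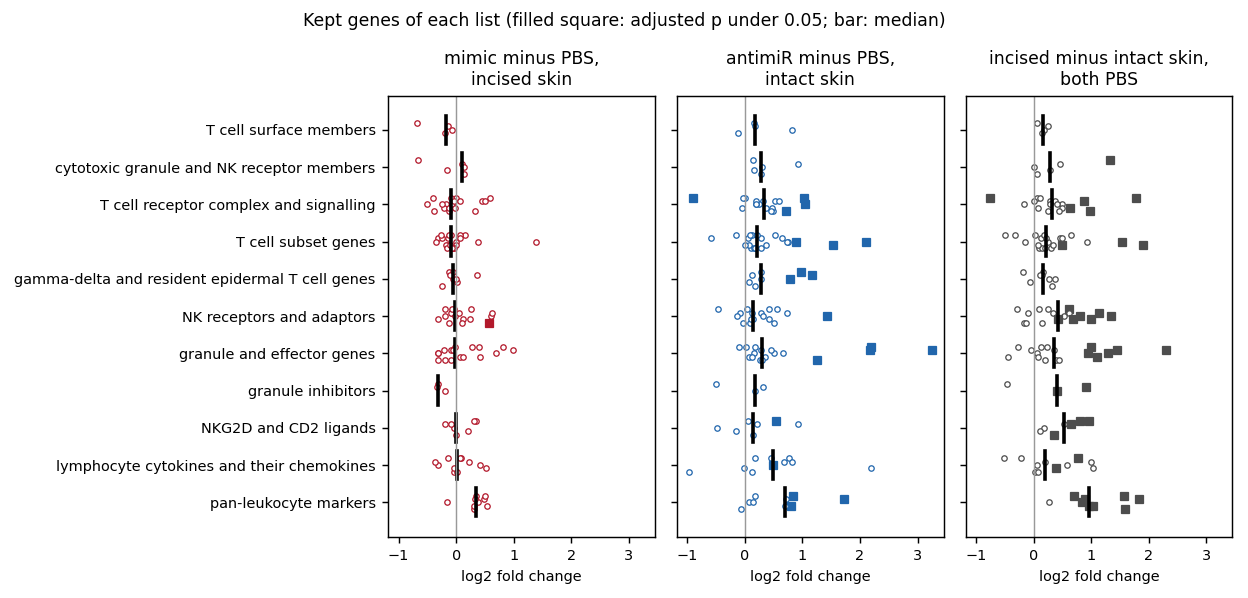
Log2 fold change of each kept gene of 11 lists in 3 comparisons, with filled squares at adjusted p under 0.05 and a bar at the median of the list. The 2 upper lists are the genes described here, with 1 filled square, and the pan-leukocyte markers at the bottom have medians of 0.35 after the mimic, 0.70 after antimiR and 0.96 with incision.

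Leukocyte markers also differed beside the antimiR values. Of 9 pan-leukocyte markers, 3 rose after antimiR (1 with Cy5 alone), and their score was -0.28 to -0.14 on antimiR arrays and -1.24 to -0.18 on intact PBS arrays, with intact PBS array 3 the lowest. Of 12 macrophage markers, 3 rose, while their score was -0.74 to 0.10 on antimiR arrays and -0.45 to -0.16 on intact PBS arrays. The score of adipocyte markers was 0.98 on intact PBS array 3 and -0.55 to -0.02 on antimiR arrays. The part of these differences in the values of Cd3g, Gzmb and Prf1 was not tested.

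Over the 12 arrays the 9 genes did not vary as one. The correlation of log2 ratios was highest between Prf1 and Klrk1, at 0.86, Cd3e and Nkg7, at 0.84, and Gzmb and Prf1, at 0.74, and lowest between Cd4 and Prf1, at -0.46. The mean of the kept T cell surface genes was most like that of the collagen genes Col1a1, with a correlation of 0.93, and Col1a2, at 0.91, and of Abhd8, Crygf and Myo3b, at 0.92, 0.90 and 0.89. The mean of the granule genes with Klrk1 was most like Bmp8a, Ptx4 and Ap5z1, each at 0.92, and Pcyt1a and Abcg4, at 0.89 and 0.88. These were the highest of 15261 genes over 12 arrays that share groups, slides and a reference.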

How the data were processed

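Per the labels, Cy5 carried RNA of each skin sample and Cy3 a universal mouse reference RNA on all 12 arrays, without a dye swap. Per the file headers, spot and background intensity of both dyes came from Agilent Feature Extraction 11.5.1.1, with positions in mm9, and the processed intensity used as an alternative had its background subtracted and its dyes normalized by that program. A log2 table that names genes was deposited too. Set against the scanner files it ran as skin over reference, with correlations of 0.891 to 0.918, while its centring is not known.

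Mean spot intensities were corrected by normexp (offset 50) in limma 3.58.1 under R 4.3.3, and log2 ratios then went through loess per array, in which control spots had weight 0. Outlier spots were dropped, and repeated spots of one probe were averaged. Kept were 27141 probes of 20464 genes with Cy5 well above background on at least 3 of 12 arrays, and the brightest probe stood for a gene. Of the kept probes, 1284 lacked a value on some array. All 12 arrays entered one fit (lmFit, eBayes) with 4 contrasts, and p-values were adjusted by Benjamini-Hochberg over all genes, or over all probes where stated. Tests are 2-sided, errors after fold changes are standard errors, and 3 arrays per group limit the precision. The scripts were tested on simulated data.

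The 10 genes and all lists were chosen with earlier results of these data known. Named from each list were up to 4 genes of smallest p per contrast. The markers of further skin and immune cells are given among the closing observations. A result of the T cell subset list is not reported here, so its counts are not given in full. Replicate numbers do not pair the arrays: deviations of same-numbered arrays from their group means correlated at -0.44 to 0.30. Alternatives covered background correction, processed signals, scaling, Cy5 alone, the deposited table, filters, probe averaging, slide, replicate block and each array left out.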

Additional observations from a re-analysis of the deposited data

How the results depend on the processing

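Depth is not a quantity of these arrays. Brightness limits Cd8a, Klrk1 and the upstream probes of Cd2 and Cd4, and 3 arrays per group on 3 slides limit the rest. Quantile scaling of average intensities between arrays left every ratio as it was, so scaling of the ratios themselves was added after seeing the data, and it changed no direction among the counts and medians of the 9 genes. Where a value below changed, the cause was not tested unless fewer arrays or genes entered the fit. The mean over probes of Cd2 with incision was -0.11, and the filter that required a signal above background on all 12 arrays called 1 of the genes after antimiR, Cd3g, with a median of -0.57 for the difference of the 2 effects.

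Gzma was the single call with incision, and 0 of the genes were called there without background correction, with processed signals, with Cy5 alone, in the deposited table, without a filter on dim probes, and with the slide as a fixed or random block. Its fold change stayed positive in each of these. In the fit over probes, the upstream Cd4 probe was called lower with incision when processed signals were used, at -0.46 (limma, adjusted p = 0.046).

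The number of all genes called after the mimic, 121, was 38 with processed signals, 43 with Cy5 alone, 16 in the deposited table, 59 with the slide as a random block and 0 with it as a fixed block, where 1479 genes had an unadjusted p under 0.05 (limma). After antimiR, 1987 genes were called, and 1208 with Cy5 alone. With incision, 3154 were called, 1741 with Cy5 alone and 11 with the slide as a fixed block. For the difference of the mimic and antimiR effects, 222 were called, against 369 with processed signals, 76 with Cy5 alone, 359 in the deposited table, 17 with the slide as a fixed block and 125 as a random block. The median of that difference over the genes described was -0.56 with Cy5 alone and -0.52 in the deposited table.

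With the replicate number as a block, 77 genes were called after the mimic, and 0 of the genes described here with incision, where Gzma had an adjusted p of 0.062. The block changed no other call of these genes.

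Some small fold changes changed sign. Without background correction, the upstream Cd4 probe gave 0.013 after the mimic. With processed signals, the mimic value was 0.062 for the upstream Cd4 probe and 0.0063 for the upstream Nkg7 probe, the antimiR value was -0.075 for Cd3e, -0.14 for Gzmb and 0.25 for the upstream Cd2 probe, and the incision value of Prf1 was -0.011. With Cy5 alone, Prf1 was -0.21 after the mimic, and Cd3e, Cd4 and Prf1 were -0.68, 0.097 and -0.19 after antimiR. In the deposited table, Cd3e was -0.075 and Gzmb -0.14 after antimiR, and Cd2, Cd4 and Prf1 were -0.15, -0.12 and -0.011 with incision. Its values of Cd3e, Gzmb and Prf1 were the same as with processed signals at this rounding.

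With the slide as a fixed block, the medians of the 9 genes were 0.017 after the mimic, 0.36 after antimiR and -0.0011 with incision, and 1 gene was called after antimiR. After the mimic it gave 0.20 for Cd3g, 0.017 for Cd4, 0.037 for the upstream Cd4 probe and 0.12 for the upstream Nkg7 probe. After antimiR it gave -0.021 for Gzma, 0.32 for the upstream Cd2 probe and 0.0078 for the upstream Cd4 probe. With incision it gave -1.10 for Cd2, -0.43 for Cd3g, -0.23 for Cd4, -0.19 for Gzmb, -0.0011 for Nkg7, 0.044 for Klrk1 and -0.22 for the upstream Nkg7 probe. As a random block, with a consensus correlation of 0.113, it gave -0.015 for Cd2 and 0.023 for Klrk1 with incision.

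With each array left out in turn, the number of all genes called was 1 to 246 after the mimic, 1090 to 2096 after antimiR, 1693 to 3082 with incision and 64 to 416 for the difference of effects. The mimic count was 54, 13 and 37 without mimic arrays 1, 2 and 3, was 1, 23 and 7 without incised PBS arrays 1, 2 and 3, and was 246 and 239 without intact PBS arrays 2 and 3. The antimiR count was 1090 and 1321 without antimiR arrays 2 and 3, and the incision count was 1693, 1884 and 1885 without incised PBS arrays 1, 2 and 3. Of the genes described, 0 to 2 were called after antimiR and 0 to 1 with incision, and their antimiR median was 0.18 to 0.38. After the mimic, the fold change was -0.24 to 0.071 for Cd3g, -0.14 to 0.29 for Gzmb, -0.0011 to 0.29 for Klrk1 and -0.23 to 0.028 for the upstream Nkg7 probe. After antimiR it was -0.25 to 0.67 for Cd2, -0.31 to 0.057 for Cd4, -0.26 to 0.51 for Gzma, -0.27 to 0.22 for the upstream Cd2 probe and -0.070 to 0.0075 for the upstream Cd4 probe. With incision it was -0.36 to 0.56 for Cd2, -0.018 to 0.34 for Cd3g, -0.0041 to 0.13 for Prf1, -0.15 to 0.14 for Klrk1 and -0.47 to 0.029 for the upstream Cd2 probe.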

Other observations

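Markers of other cells of skin moved beside the T and NK cell genes, and they are given as values of lists chosen with earlier results of these data known. After the mimic, 3 of 9 fibroblast markers fell, Pi16 by 1.60, Clec3b by 1.52 and Dpt by 0.83 on the log2 scale (limma), and the median of the list was -1.28. Dpt had an adjusted p of 0.056 with the slide as a random block, and with Cy5 alone 1 of the 9 was called. With incision 1 of these 9 rose, the collagen gene Col3a1, by 1.88 ± 0.57, and after antimiR 0 passed. The Col3a1 call was lost with the slide as a random block (limma, adjusted p = 0.078) and with Cy5 alone (adjusted p = 0.080). Of 10 kept neutrophil markers, 1 passed after the mimic and 7 had positive fold changes, with a median of 0.27. The 1 that passed was the neutrophil collagenase Mmp8, which rose by 2.15 ± 0.38, at 3.35 to 3.62 in mimic-treated and 1.27 to 1.51 in PBS-treated incised skin. This call was lost with the slide as a random block (limma, adjusted p = 0.061) and with Cy5 alone (adjusted p = 0.063). After antimiR 2 of the 10 passed (1 with the slide as a random block). Mmp8 was among them and rose by 1.87 ± 0.38, at 1.00 to 2.78 in antimiR-treated and -0.04 to 0.74 in PBS-treated intact skin. The mimic and antimiR comparisons share no arrays, and for Mmp8 the 3 arrays of each treated group lay above all 3 of its PBS group. Groups did not overlap, in either direction, for 24.2% of all genes after the mimic and 25.8% after antimiR.

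Of 11 kept dendritic and Langerhans cell markers, 2 rose after antimiR, the maturation marker Cd83 by 1.19 ± 0.13 and the receptor Flt3 by 0.86 ± 0.15, 4 rose with incision and 0 changed after the mimic. With the slide as a fixed block 0 markers of any list were called after the mimic or with incision, where 1479 and 2729 of all genes had an unadjusted p under 0.05 (limma). Of 6 kept B and plasma cell markers, 2 rose with incision, Cd79b by 0.72 ± 0.17 and Cd22 by 0.34 ± 0.10, and of 7 kept mast cell markers 1 rose, the tryptase Tpsb2, by 0.54 ± 0.15. Cd22 and Tpsb2 had an adjusted p of 0.080 and 0.054 with the slide as a random block (limma), and of 0.17 and 0.22 with Cy5 alone. In those 2 lists 0 changed after the mimic or antimiR. None of the 10 adipocyte, 9 hair follicle and 8 keratinocyte markers kept passed in any of the 3 comparisons, with medians of -0.38, 0.03 and -0.16 after the mimic, -0.49, -0.54 and -0.30 after antimiR, and -0.16, -0.61 and 0.21 with incision.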
